A study of Mus musculus with 60 samples.

Results

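The Dppa genes of pluripotent cells were read from the probe sets whose platform symbol was exactly Dppa2, Dppa3, Dppa4 or Dppa5a, 4 genes of the 18193 that had a probe set with 1 symbol. They had 5 probe sets, all on array type MOE430A and 0 on MOE430B: 2 for Dppa2 and 1 for each of the others. The genes were chosen with their levels on these arrays already known, so their levels and differences are given as a description, with no test.

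Transcripts were measured in undifferentiated mouse embryonal carcinoma cells, the pluripotent stem cells of teratocarcinomas. The strains were the sublines CL6G26, CL6G36, CL6G45 and CL6G52, derived from P19CL6, then P19CL6, itself a substrain of P19, and the parental line P19. The labels give every strain the same origin, a male embryo of the C3H mouse strain, and the same growth medium, and they name no drug or introduced gene; the labels do not say what the sublines were derived for or how many clones each stands for. Each strain had 5 replicates, each on MOE430A and MOE430B, which makes 60 arrays. The labels call the replicates biological but do not say that they came from separate cultures, so a p-value below speaks only of the variation among these samples, which may be partly technical.

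Dppa2 and Dppa4 are chromatin proteins with a SAP domain that act as a pair. In mouse embryonic stem cells and early embryos they keep the promoters of developmental genes open and poised, and they help switch on genes of the 2-cell embryo. Dppa3, also called Stella or PGC7, is a maternal factor that guards parts of the early embryo's genome from loss of methylation, opposes the maintenance methylation factor Uhrf1 in oocytes, and marks primordial germ cells. Dppa5a, also called Esg1, is a small RNA-binding protein with a KH domain that is typical of embryonic stem and embryonal carcinoma cells.

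Levels are log2 signals after quantile normalization within the array type, so that 1 unit is a 2-fold change. The detection floor was the 40th percentile of an array, at 4.61 on MOE430A, and a signal under it is only a bound. The probe set of Dppa4 lay above the floor on 26 of 30 arrays, that of Dppa3 on 14 and that of Dppa5a on 11. The brighter probe set of Dppa2 lay above it on 4 of 30 arrays and the dimmer one on 0. The filter asked for 5 arrays, so 3 of the 4 genes were among the 13181 tested and Dppa2 was not. The Dppa signals thus sat near or under the floor on most arrays.

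The arrays do not all lie with their own strain. On MOE430A, 4 of 30 arrays were nearest to the mean of another strain. P19 replicates 4 and 5 were nearest to P19CL6, CL6G52 replicate 1 to CL6G45, and P19CL6 replicate 2 to CL6G26. On MOE430B this held for 9 of 30, again with P19 replicates 4 and 5 nearest to P19CL6 and CL6G52 replicate 1 nearest to CL6G45. There P19CL6 replicate 1 was nearest to CL6G26, and CL6G26 replicates 1, 2 and 5 and CL6G52 replicate 2 to P19CL6. CL6G36 replicate 1 was nearest to CL6G45. Of 12 markers of pluripotent cells on the list, 11 had a probe set, and all 11 were tested, so each was above the floor on at least 5 of 30 arrays. Their summed signal, which the brightest genes dominate, ran from 13272 to 13979 in P19CL6 and from 13037 to 13823 in P19. In the sublines it ran from 13204 to 14308 in CL6G26, 13278 to 14312 in CL6G36, 14219 to 14860 in CL6G45 and 12467 to 14320 in CL6G52. Pou5f1, which encodes the pluripotency factor Oct4, had strain means of 11.24 to 11.59, and Sox2, its partner, of 8.60 to 8.97. In limma, 1 of the 11 markers rose and 2 fell in CL6G36 against P19CL6. In CL6G45 2 rose and 2 fell, and in CL6G52 2 fell. In CL6G26 0 passed, with 1 higher and 2 lower at an unadjusted p under 0.05. Utf1 changed by 0.55 in CL6G36 and 0.68 in CL6G45 on the log2 scale. Tdgf1 changed by -0.37, -0.35 and -0.54 in CL6G36, CL6G45 and CL6G52. Of these Utf1 and Tdgf1 changes, only that of Utf1 in CL6G45 passed with the deposited scaling. The median deposited signal of a MOE430A array lay between 30.2 and 53.4; precision is set by having 5 arrays a strain.

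Dppa4 read 4.44, 4.63, 4.88, 4.66 and 5.13 in P19CL6 replicates 1 to 5, against 7.45, 7.40, 7.47, 4.88 and 4.88 in P19. P19 replicates 1, 2 and 3 lay far above every P19CL6 array, while P19 replicates 4 and 5 lay inside the P19CL6 range. In the signals as deposited, P19CL6 ran from 21.6 to 29.5, and the P19 replicates read 160.3, 150.7, 139.6, 31.1 and 27.4. Relative to the P19CL6 mean, P19 replicates 1, 2 and 3 were 6.49-fold, 6.27-fold and 6.62-fold higher, and replicates 4 and 5 were 1.09-fold and 1.10-fold higher. These are bulk cultures, where fewer cells with the transcript and less transcript per cell cannot be told apart.

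The strain means of Dppa4 were 5.35 ± 0.35 in CL6G26, 4.61 ± 0.23 in CL6G36, 4.92 ± 0.35 in CL6G45, 4.82 ± 0.08 in CL6G52, 4.75 ± 0.26 in P19CL6 and 6.41 ± 1.40 in P19 (SD, n = 5 each). The P19 mean describes none of its arrays, since it falls in the gap between replicates 1 to 3 and replicates 4 and 5. CL6G26 was the subline with the most Dppa4: its arrays read 4.97, 5.52, 5.50, 4.99 and 5.74, all above the floor, and 3 of them lay above the highest P19CL6 array. Each step of the order from P19 through CL6G26, CL6G45, CL6G52 and P19CL6 to CL6G36 joined strains whose ranges overlapped.

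**Figure D1:**
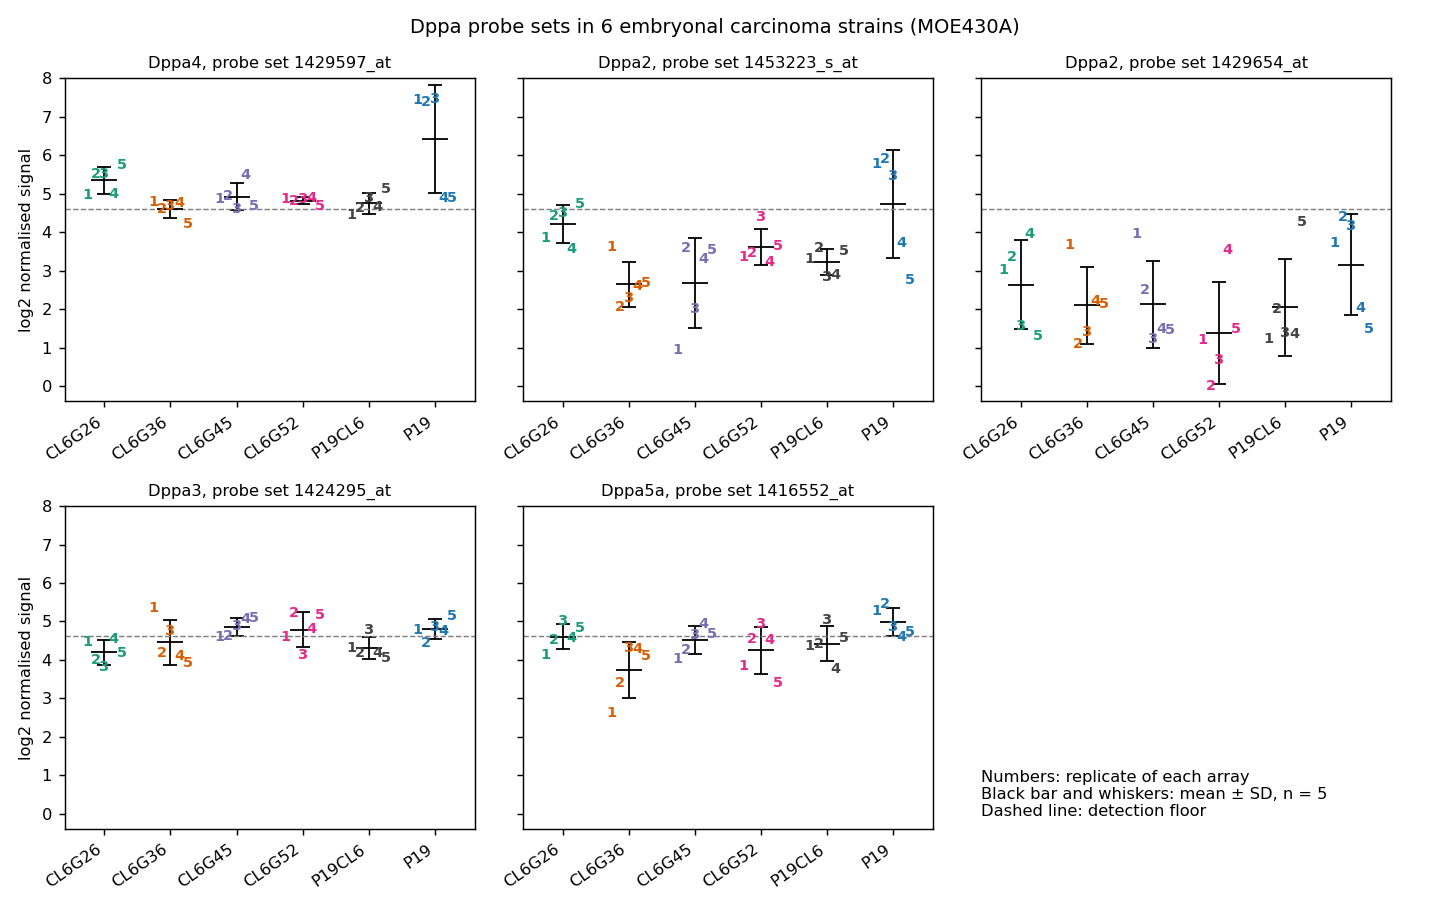
Log2 normalised signal (vertical axis) of the 5 Dppa probe sets in each strain. Coloured numbers are the replicates, the black bar and whiskers are the mean ± SD (n = 5) and the dashed line is the floor of 4.61. Dppa4 in P19 splits into replicates at 7.40 to 7.47 and at 4.88, and most other signals lie near or under the floor.

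Dppa2, the partner of Dppa4, showed the same split at a lower level. Its brighter probe set read 3.31, 3.58, 2.83, 2.89 and 3.52 in P19CL6, against 5.78, 5.91, 5.45, 3.71 and 2.76 in P19. P19 replicates 1, 2 and 3 were above the floor, and the other 2 P19 replicates and all 5 P19CL6 arrays were under it. Against the floor those 3 replicates stood 2.24-fold, 2.45-fold and 1.79-fold higher, and the mean of all 5 P19 arrays was at least 1.08-fold higher than P19CL6. The dimmer probe set read 1.22, 2.00, 1.37, 1.36 and 4.25 in P19CL6, against 3.73, 4.41, 4.15, 2.02 and 1.48 in P19, with every array under the floor. It put the same P19 replicates on top, but its signals there have no order that can be relied on, and P19CL6 replicate 5 lay among them.

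In the sublines the brighter Dppa2 probe set averaged 4.22 ± 0.49 in CL6G26, 2.65 ± 0.59 in CL6G36, 2.67 ± 1.16 in CL6G45 and 3.61 ± 0.47 in CL6G52, against 3.23 ± 0.35 in P19CL6 (SD, n = 5 each). CL6G26 replicate 5, at 4.73, was the 1 array outside P19 above the floor. CL6G26 again came next after P19, and 4 of its 5 arrays (3.86, 4.43, 4.51 and 4.73) were above the highest P19CL6 array. With signals raised to the floor, the difference between CL6G26 and P19CL6 was 0.02 in place of 0.99, so the floor limits what can be said of it.

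**Figure D2:**
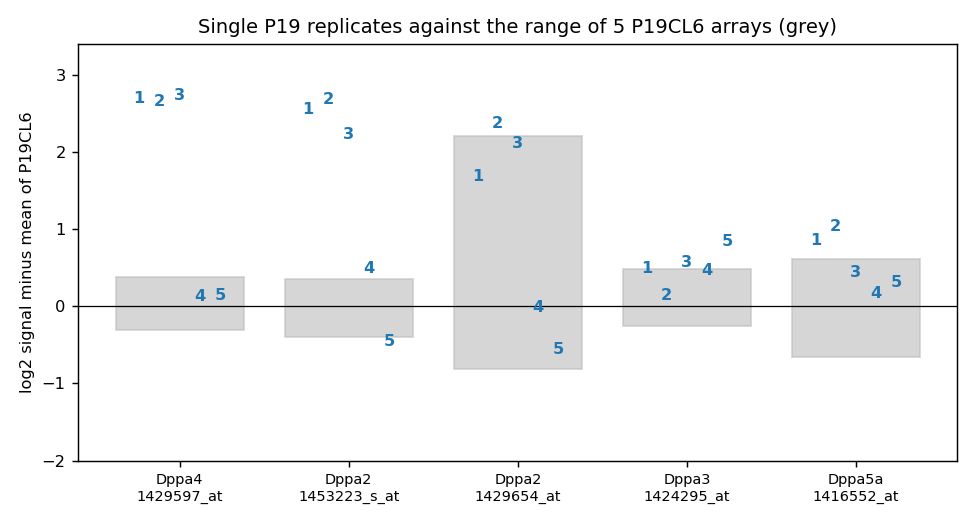
Log2 signal of each P19 replicate (blue numbers 1 to 5) minus the mean of the 5 P19CL6 arrays (vertical axis) for the 5 Dppa probe sets; grey boxes span the 5 P19CL6 arrays. Replicates 1, 2 and 3 stand 2.65 to 2.73 above the P19CL6 mean for Dppa4 and 2.23 to 2.68 above it for the brighter Dppa2 probe set, while replicates 4 and 5 lie within 0.49 of it for both.

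Dppa2 and Dppa4 lie next to each other on mouse chromosome 16, per the RefSeq gene table of GRCm38.p6: Dppa4 at chr16:48283735-48294292 and Dppa2 at chr16:48310274-48319513, with 15982 bases between them. Over the 30 arrays the log2 signals of Dppa4 and the brighter Dppa2 probe set had a Pearson correlation of 0.78 and a Spearman correlation of 0.66. Without P19 replicates 1, 2 and 3, over 27 arrays, these were 0.55 and 0.53. Arrays of 1 strain share their cells, and both probe sets share the array and its scaling, so the correlations are given as a description. The arrays above the floor for both genes were P19 replicates 1, 2 and 3 and CL6G26 replicate 5, which read 5.74 for Dppa4 and 4.73 for Dppa2.

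**Figure D3:**
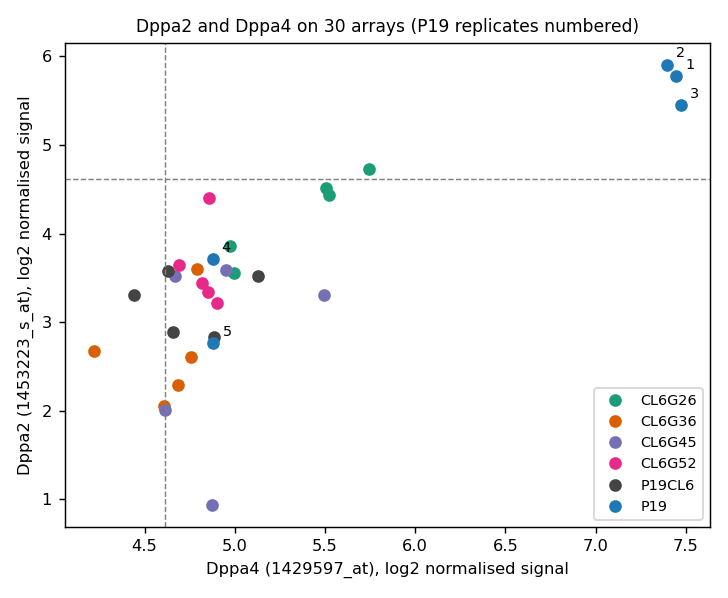
Log2 normalised signal of Dppa4 (horizontal axis) and the brighter probe set of Dppa2 (vertical axis) on the 30 MOE430A arrays, coloured by strain, with P19 replicates numbered and the floor of 4.61 dashed. P19 replicates 1, 2 and 3 lie alone at the upper right, the CL6G26 arrays reach 5.74 for Dppa4 and 4.73 for Dppa2, and P19 replicates 4 and 5 lie among the other strains.

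Dppa3, the germ cell and egg factor, did not show that split. It read 4.30, 4.17, 4.79, 4.19 and 4.05 in P19CL6, against 4.79, 4.43, 4.87, 4.76 and 5.14 in P19, and the P19 replicate with the highest value was replicate 5. The ranges of both strains overlapped. Strain means were 4.20 ± 0.32 in CL6G26, 4.46 ± 0.59 in CL6G36, 4.85 ± 0.24 in CL6G45, 4.79 ± 0.45 in CL6G52, 4.30 ± 0.29 in P19CL6 and 4.80 ± 0.25 in P19 (SD, n = 5 each). CL6G26, which came next after P19 for Dppa4 and Dppa2, was the lowest strain for Dppa3, with 0 of 5 arrays above the floor. All neighbours in the order of strains overlapped. The correlation of Dppa3 with Dppa4 over 30 arrays was 0.04 and that with Dppa5a -0.13.

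Dppa5a, the RNA-binding member, read 4.35, 4.40, 5.04, 3.76 and 4.57 in P19CL6, against 5.28, 5.46, 4.87, 4.59 and 4.73 in P19. P19 replicates 1 and 2 lay above all P19CL6 arrays and the other 3 P19 replicates lay inside their range. The means were 4.61 ± 0.34 in CL6G26, 3.75 ± 0.73 in CL6G36, 4.51 ± 0.36 in CL6G45, 4.25 ± 0.62 in CL6G52, 4.43 ± 0.46 in P19CL6 and 4.99 ± 0.37 in P19 (SD, n = 5 each). CL6G36 was the lowest strain, with 0 of 5 arrays above the floor, and it was also the lowest for Dppa4 and for the brighter Dppa2 probe set. The correlation with Dppa4 was 0.55 over 30 arrays and 0.42 without P19 replicates 1, 2 and 3. Dppa5a lies on chromosome 9, where the gene table lists a pseudogene, Dppa5c, as the fifth gene before it, and a probe set can pick up such a copy, so the Dppa5a signal is uncertain in that respect.

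As a log2 difference with the SE of the fit, Dppa4 differed by -1.67 ± 0.36 between P19CL6 and P19, Dppa5a by -0.56 ± 0.32 and Dppa3 by -0.50 ± 0.25. A gene was called where limma gave an adjusted p under 0.05 and the change was at least 2-fold. In this comparison 1 of the 3 members tested, Dppa4, was called, where 0.652% of all genes were, and nothing is read from that count because the family was chosen with these values known. Without P19 replicates 4 and 5 the Dppa4 difference was -2.69, and without P19 replicates 1, 2 and 3 it was -0.13. Leaving out any 1 array of either strain gave -2.05 to -1.40, but without P19 replicate 1, 2 or 3, or with both strains fitted alone, limma passed 0 of all genes (1943, 1989, 1915 and 2137 at an unadjusted p under 0.05), so the call of Dppa4 was lost there too.

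In the sublines 0 of 3 members tested were called in any comparison with P19CL6, where the share of all genes called was 0.258% in CL6G26, 1.46% in CL6G36, 1.38% in CL6G45 and 0.501% in CL6G52. The differences of Dppa4 from P19CL6 were 0.60 in CL6G26, -0.14 in CL6G36, 0.17 in CL6G45 and 0.07 in CL6G52, each with an SE of 0.36. For Dppa3 they were -0.10, 0.16, 0.55 and 0.49 in the same order, with an SE of 0.25, and for Dppa5a 0.18, -0.68, 0.08 and -0.18, with an SE of 0.32. These SEs pool the spread of all 6 strains, as do the calls. For Dppa4 the SD was 1.40 in P19 and 0.08 to 0.35 in the other strains. Its SE is thus widened by P19 arrays that are outside these subline comparisons. For every Dppa probe set the arrays of each subline overlapped those of P19CL6, and those of P19CL6 overlapped those of P19. Over all genes tested, the share without overlap was 4.15% for CL6G26, 12.3% for CL6G36, 13.7% for CL6G45, 4.89% for CL6G52 and 2.23% for P19CL6 against P19.

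**Figure D4:**
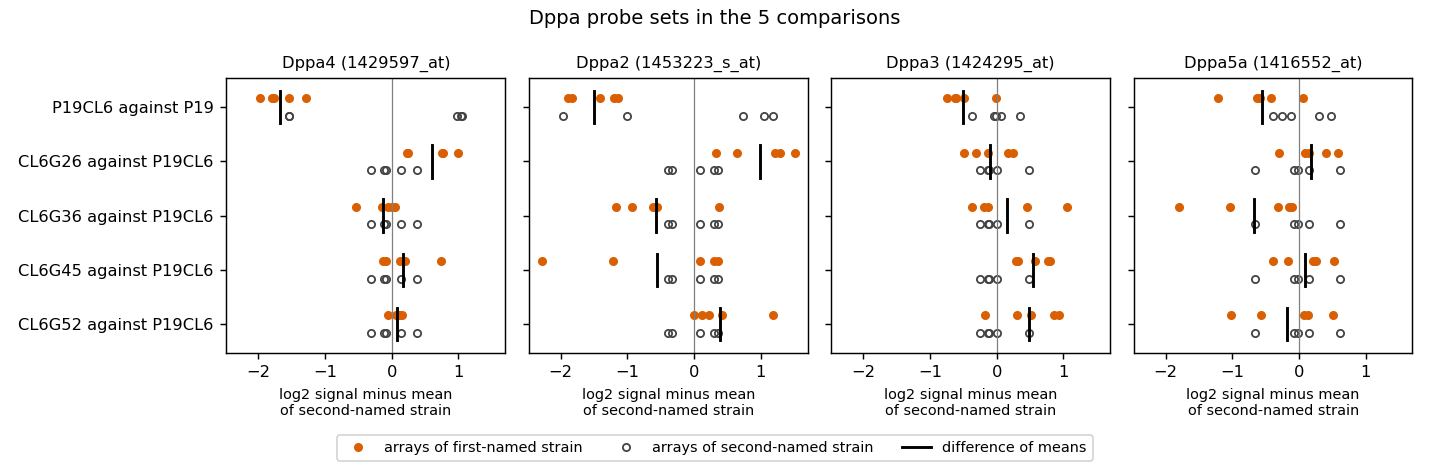
The 5 comparisons (rows) for the brightest probe set of each Dppa gene. Filled points are arrays of the first-named strain and open points arrays of the second-named, each minus the mean of the second-named strain on the log2 scale (horizontal axis); the vertical bar is the difference of means. The open points of P19 for Dppa4 fall into separate clusters, and the filled and open points overlap in every row.

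The genes whose log2 signal followed Dppa4 most closely over the 30 arrays, among 8905 genes on MOE430A, were Nmt1, an N-myristoyltransferase (r = 0.92), Resf1, a retroelement silencing factor of embryonic stem cells (0.91), Efhd1, a mitochondrial calcium-binding protein (0.90), Kars, the lysyl-tRNA synthetase (0.90), and Emg1, a ribosome assembly factor (0.89). Efhd1 shows the pattern: it averaged 4.02 in P19CL6, against 7.86, 7.97, 7.87, 4.45 and 4.40 in P19. Without P19 replicates 1, 2 and 3 the correlations of these 5 genes with Dppa4 were 0.22 to 0.39, so they rest on those arrays. The 3 at the other end were Itm2b, an integral membrane protein (-0.94), Zic1, a zinc finger factor of neural precursors (-0.93), and Coro2a, an actin-binding protein (-0.92). Leaving out the same 3 arrays gave -0.55 for Itm2b, -0.27 for Zic1 and -0.25 for Coro2a. Zic1 averaged 8.53 in P19CL6, against 6.20, 6.43, 6.39, 8.53 and 8.47 in P19.

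Dppa3 and Dppa5a had weaker companions. For Dppa3 the highest were Palm, a membrane-linked phosphoprotein, at 0.64, then Gfra2, Mapk6, Casp2 and Camkv, the last at 0.59, and the lowest was Tcaf2 at -0.72. For Dppa5a they were Atp2c1, a Golgi calcium pump, at 0.76, then Tsg101, Fam20c, Ptpn6 and Upk2, the last at 0.72, and the lowest was Serinc3 at -0.76. Leaving out P19 replicates 1, 2 and 3 left Palm at 0.68 and Atp2c1 at 0.70. None of these genes stood in the lists of both Dppa4 and Dppa3 or Dppa5a. Each list held only the 5 highest and 3 lowest of 8905 genes, so this does not show that the patterns differ.

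The nearest 5 annotated genes on each side of each member made 30 neighbours, of which 15 had a probe set and 8 were tested. Around Dppa2 and Dppa4, Morc1, a germline silencer of transposons, was above the floor on 0 of 30 arrays, and Trat1, an adaptor of T cell receptors, differed by 0.06 between P19CL6 and P19 (limma, adjusted p = 0.964). Dppa3 at chr6:122626424-122630271 lies in a cluster of pluripotency genes, with Gdf3 16337 bases before it and Nanog 77218 bases after it. Gdf3, a ligand of the Nodal type, read 7.94, 7.83, 7.70, 7.86 and 8.06 in P19CL6, against 9.25, 9.27, 9.18, 7.88 and 7.85 in P19. It was high in the same P19 replicates as Dppa4, and it fell by 0.81 on the log2 scale (limma, adjusted p = 0.0125), and it no longer passed without P19 replicate 1, 2 or 3.

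Nanog, a core pluripotency factor, differed by 0.04 between P19CL6 and P19 (limma, adjusted p = 0.886). It fell in CL6G36 to 7.66 ± 0.34, in CL6G45 to 7.74 ± 0.15 and in CL6G52 to 8.10 ± 0.21, against 8.76 ± 0.12 in P19CL6 (SD, n = 5 each). Dppa3 averaged 4.46, 4.85 and 4.79 in those 3 sublines, but also 4.80 in P19, where Nanog was 8.73 ± 0.12. In CL6G52 Nanog did not pass with the deposited scaling (limma, adjusted p = 0.262). Apobec1, a cytidine deaminase that edits RNA, was at least 1.39-fold higher in P19CL6 than in P19 (limma, adjusted p = 0.0211) and at least 1.39-fold lower in CL6G26 than in P19CL6 (adjusted p = 0.00218). Apobec1 lost the P19CL6 call under 8 of 21 alternatives, among them without P19 replicate 1, 2 or 3, and in CL6G26 it did not pass with signals raised to the floor (adjusted p = 0.0613). Near Dppa5a at chr9:78367052-78368199, Ooep, an egg protein of the same KH family that lies 8704 bases after it, differed by -0.22 between P19CL6 and P19 (limma, adjusted p = 0.910), and in no subline did it pass.

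Of 17 genes of naive pluripotency and the early embryo, 9 were tested, and in P19CL6 against P19 3 fell and none rose, where 1.89% of all genes fell and 2.57% rose. Besides Gdf3 these were Klf5, a Krüppel-like factor of the inner cell mass, at -0.80 ± 0.20 (limma, adjusted p = 0.0211), and Eras, a Ras protein of embryonic stem cells, at -0.82 ± 0.21 (adjusted p = 0.0207). The median difference of the list was -0.12, beside 0.01 for all genes. Eras read 6.51, 6.33, 5.61, 6.13 and 5.78 in P19CL6, against 7.45, 7.32, 7.31, 6.34 and 6.01 in P19, the split seen in Dppa4. Klf5 read 4.92, 5.03, 5.32, 4.89 and 4.87 in P19CL6, against 5.96, 6.25, 6.04, 5.48 and 5.31 in P19, with all but P19 replicate 5 above every P19CL6 array. Neither passed without P19 replicate 1, 2 or 3. In the sublines Eras rose by 0.81 in CL6G26 (adjusted p = 0.0356; lost under 10 of 19 alternatives) and Tbx3, a T-box factor, fell by 0.66 on the log2 scale in CL6G45 (adjusted p = 0.0479; lost under 13 of 19), and 0 genes of the list passed in limma in CL6G36 or CL6G52, with 2 and 1 at an unadjusted p under 0.05. Tbx3 lay above the floor on 2 of 5 CL6G45 arrays, and its difference was -0.38 with signals raised to the floor.

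**Figure D5:**
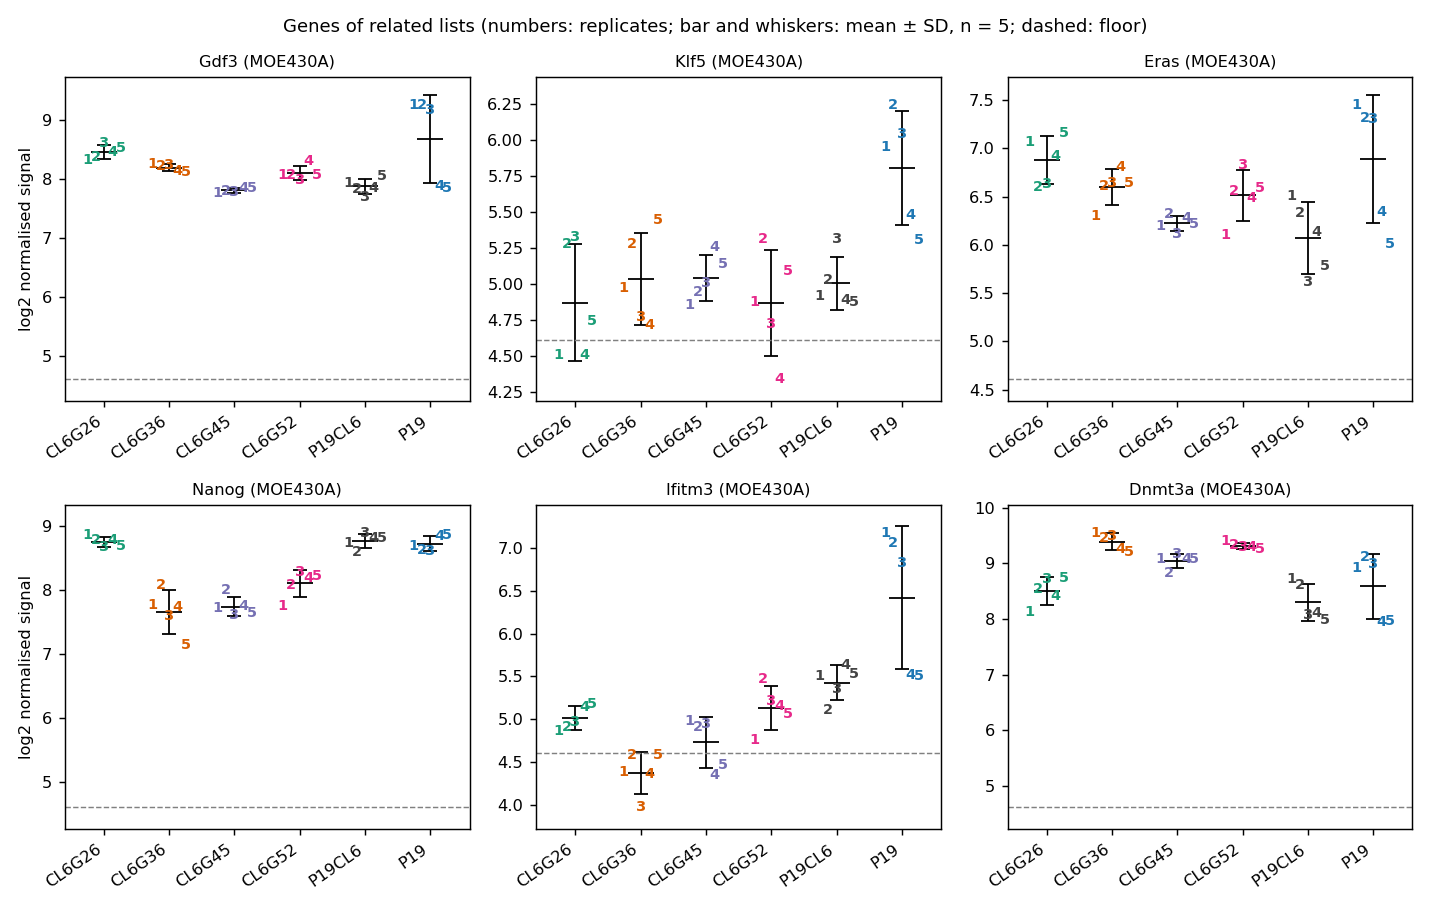
Log2 normalised signal (vertical axes, each with its own range) of Gdf3, Klf5, Eras, Nanog, Ifitm3 and Dnmt3a by strain, with replicates as numbers, mean ± SD (n = 5) in black and the floor dashed. Gdf3, Klf5, Eras, Ifitm3 and Dnmt3a are higher in P19 replicates 1, 2 and 3 than in P19 replicates 4 and 5, as Dppa4 is. For Klf5, P19 replicate 4 also lies above every P19CL6 array. Nanog does not show the split, with P19 replicates between 8.60 and 8.86.

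Of 14 genes of primordial germ cell specification, the process that Dppa3 marks, 10 were tested; 3 fell and none rose in P19CL6 against P19, where 1.89% of all genes fell. Ifitm3, the membrane protein Fragilis, read 5.51, 5.11, 5.35, 5.64 and 5.53 in P19CL6, against 7.17, 7.06, 6.83, 5.52 and 5.51 in P19, a change of -0.99 ± 0.24 (limma, adjusted p = 0.0181). Ifitm1, its relative, changed by -0.96 ± 0.28 (adjusted p = 0.0413), and Alpl, the tissue-nonspecific alkaline phosphatase of germ and stem cells, by -0.64 ± 0.18 (adjusted p = 0.0341). None of the 3 passed without P19 replicate 1, 2 or 3, and Ifitm1 and Alpl did not pass under 12 and 13 of 21 alternatives. The median of the list was -0.25.

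Genes of this list also fell in the sublines: 2, 5, 3 and 3 of 10 fell in CL6G26, CL6G36, CL6G45 and CL6G52 and none rose. Of all genes, 0.827%, 6.72%, 6.71% and 1.8% fell and 0.417%, 6.83%, 6.55% and 1.38% rose. Ifitm1 averaged 6.55 ± 0.22, 4.47 ± 0.60, 5.21 ± 0.15 and 5.70 ± 0.53 in those sublines, against 8.05 ± 0.80 in P19CL6 (SD, n = 5 each; limma, highest adjusted p = 0.00186). Prdm1, the repressor Blimp1 that starts the germ cell programme, fell by 1.07 in CL6G26, by 1.36 in CL6G36 and by 1.02 in CL6G52 on the log2 scale (highest adjusted p = 0.00279). Prdm1 lost its call in CL6G26 with the deposited scaling. It lay above the floor on 1 of 5 CL6G36 arrays, where its difference was -1.28 with signals raised to the floor. In CL6G36, Kit, the stem cell factor receptor, fell by 0.87 and Smad1, of BMP signalling, by 0.61 on the log2 scale. With the deposited scaling Smad1 did not pass. In CL6G45 Ifitm3 and Kit did not pass under 15 and 11 of 19 alternatives. The median differences of the list were -0.08, -0.46, -0.19 and -0.44. Markers of trophoblast fell too, 1, 4, 4 and 4 of 9 tested, and their summed signal ran from 980 to 1036, 753 to 838, 693 to 785 and 616 to 846 in the sublines, against 1109 to 1516 in P19CL6; Elf5 and Tpbpa, of 11 on that list, were under the floor on all arrays. Markers of primitive endoderm fell in 0, 3, 5 and 1 of 9 tested, with sums of 1839 to 2073, 1903 to 2031, 1472 to 1545 and 1510 to 2369, against 1859 to 2371. CL6G52 replicate 1 set an end of both CL6G52 ranges, since replicates 2 to 5 summed to 616 to 697 for trophoblast and 2178 to 2369 for primitive endoderm. Their part in the result was not tested.

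The DNA methylation machinery, on which Dppa3 acts, was tested through 14 of 17 genes. In P19CL6 against P19 0 passed in limma, but 3 were lower at an unadjusted p under 0.05. The median of the list was -0.06. Dnmt3a, a de novo methyltransferase, read 8.72, 8.61, 8.07, 8.11 and 7.98 in P19CL6, against 8.92 to 9.12 in P19 replicates 1, 2 and 3 and 7.95 and 7.97 in P19 replicates 4 and 5. In the sublines Dnmt3a rose by 1.10 ± 0.18 in CL6G36, by 0.75 ± 0.18 in CL6G45 and by 1.02 ± 0.18 in CL6G52 (limma, highest adjusted p = 0.00314). Uhrf1, the maintenance factor, fell by 0.29 in CL6G36 (adjusted p = 0.00957; lost with the deposited scaling), Uhrf2, its relative, fell by 1.14 in CL6G26 (adjusted p = 0.000603) and Dnmt3b rose by 0.38 in CL6G45 (adjusted p = 0.00797; lost with the deposited scaling), all on the log2 scale. Dnmt1, the maintenance enzyme, and Tet1, a demethylating dioxygenase, passed in no comparison. Dnmt3l, a cofactor of the de novo enzymes, was above the floor on 1 of 30 arrays, P19 replicate 2 at 5.20.

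The targets ascribed to Dppa2 and Dppa4 were mostly not measurable. Of 24 genes of the 2-cell stage, 8 had a probe set and 2 were tested, Usp17la and Pramel6; in limma 0 passed in any comparison, with 0 at an unadjusted p under 0.05 in P19CL6 against P19 and 1, 0, 1 and 1 in CL6G26, CL6G36, CL6G45 and CL6G52. Usp17la, a deubiquitinase, averaged 4.48 ± 0.57 in P19CL6, against 4.25 ± 0.31 in P19 (SD, n = 5 each). Of 26 germline genes that methylated promoters silence, 25 had a probe set and 6 were tested, and 0 passed in P19CL6 against P19 or in CL6G26 or CL6G52 in limma, with 1, 0 and 0 at an unadjusted p under 0.05. Dazl, an RNA-binding protein of germ cells, was above the floor on 0 of 30 arrays. Tex15, needed for meiosis and piRNA silencing, was at least 1.81-fold lower than in P19CL6 both in CL6G36 (adjusted p = 7.55e-05) and in CL6G45 (adjusted p = 0.00113), where it was under the floor on all arrays. Asz1, a piRNA pathway protein, fell by 0.68 on the log2 scale in CL6G45 (adjusted p = 0.0249; lost under 5 of 19 alternatives). Asz1 lay above the floor on 2 of 5 CL6G45 arrays, and its difference was -0.59 with signals raised to the floor. Prdm14, a germ cell and naive pluripotency factor, was above the floor on 2 of 30 arrays of MOE430B.

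Of 11 genes of the egg and early embryo complex that Dppa5a's KH family belongs to, 4 were tested, and in limma 0 passed in P19CL6 against P19, with 0 at an unadjusted p under 0.05. In the sublines 1 gene passed, Zbed3, a member of that complex, which fell by 0.39 on the log2 scale in CL6G36 (adjusted p = 0.0329; lost under 9 of 19 alternatives).

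Other markers moved with the split among the P19 replicates. The summed signal of 13 primitive endoderm markers was 1859 to 2371 in P19CL6, against 1323, 1339, 1333, 2259 and 2269 in P19, and Ttr among them was under the floor on all arrays. That of 11 trophoblast markers was 1109 to 1516 in P19CL6, against 885, 889, 947, 1439 and 1350 in P19. That of 12 fibroblast and mesenchyme markers was 237 to 316 in P19CL6, against 435, 438, 484, 255 and 293 in P19, with Col3a1, Lum, Pdgfrb and Postn under the floor on all arrays. Neural progenitor markers summed to 377 to 432 in P19CL6 and 327 to 415 in P19; 0 of the 4 tested passed in limma, with 1 at an unadjusted p under 0.05. In P19CL6 against P19, 1 of 9 primitive endoderm markers rose (Col4a1, a basement membrane collagen, by 0.74), 1 of 9 trophoblast markers rose (Gata3, a GATA factor, by 1.96, or 0.30 with signals raised to the floor), 1 of 5 fibroblast markers fell (Col1a2, a fibrillar collagen, at -0.73) and 1 of 11 pluripotent cell markers rose (Otx2, of the epiblast, by 0.33); limma's adjusted p values were 0.0397, 0.0323, 0.0122 and 0.0166. None of these 4 genes passed without P19 replicate 1, 2 or 3. On MOE430A the ratio of the 3' to the 5' probe set of Gapdh, a sign of RNA integrity, was 0.835 to 0.887 in P19CL6. In P19 it was 0.937, 0.908, 0.935, 0.954 and 0.924, with no gap between replicates 1 to 3 and 4 to 5. The same ratio of actin did separate them, at 1.19, 1.17 and 1.25 against 1.15 and 1.14, beside 1.10 to 1.20 in P19CL6. For MOE430B the actin ratio in P19 was 1.36, 1.29 and 1.29 against 1.22 and 1.10. The part of these marker genes and of RNA integrity in the Dppa4 and Dppa2 levels was not tested.

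Without P19 replicates 4 and 5, the comparison of P19CL6 with P19 called 2.95% of all genes in place of 0.652%, and 19.6% passed by adjusted p alone, 9.07% lower and 10.5% higher. Of the naive pluripotency list 2 of 9 then fell, Gdf3 by 1.36 and Eras by 1.29, and of the primordial germ cell list 4 of 10 fell, among them Ifitm3 by 1.59 and Alpl by 1.07, and 1 rose, Smad1 by 0.29, on the log2 scale (limma, highest adjusted p = 0.0358). Of the DNA methylation list 3 of 14 fell: Dnmt3a by 0.71, Dnmt3b by 0.51 and Trim28, a silencing cofactor, by 0.20 (highest adjusted p = 0.0303). Marker genes moved too: 4 of 9 primitive endoderm markers rose and 1 fell, 3 of 9 trophoblast markers rose, and 3 of 5 fibroblast markers fell. Of 11 pluripotent cell markers 3 rose, Pou5f1, Tdgf1 and Otx2, and 3 fell, Sox2, Trim71 and Dnmt3b. Of 4 neural progenitor markers 1 rose. Of the germline list 1 of 6 rose, Tdrkh, a piRNA pathway protein, by 1.57 (adjusted p = 0.00470). Without P19 replicates 1, 2 and 3, 0 genes passed in limma in the whole comparison, with 441 at an unadjusted p under 0.05.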

How the data were processed

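The authors deposited linear signal intensities per probe set, and the submitters' processing notes name GCOS without a version; scaling target and probe design build are not given in the sources used here. Raw scanner files were not used. For each array type the 64 control probe sets were left out, the 30 arrays were quantile normalized, values below 1 were raised to 1, and the log2 scale was used. The floor was the 40th percentile on MOE430A and the 60th on MOE430B (4.15), and a probe set was tested if above it on at least 5 of 30 arrays (15068 and 12131 probe sets). A gene was read from its brightest probe set, x_at kinds last and MOE430A first. Tests were two-sided, with limma version 3.58.1 in R version 4.3.3: group means over all 30 arrays, eBayes with trend, 24 residual degrees of freedom, and Benjamini-Hochberg adjustment within array type and comparison. "Passed", "rose" and "fell" mean an adjusted p under 0.05, and "called" adds a 2-fold change. On simulated data for CL6G36 against P19CL6 with 15068 probe sets, 84% of 2-fold and 95% of 4-fold changes were recovered by adjusted p alone. The simulation gave each probe set the same normal spread in all strains. It therefore does not describe P19CL6 against P19, where the P19 arrays split.

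Where 1 strain lay under the floor on all arrays, a lower bound on the fold is printed, from the brighter strain's mean and the floor. Alternatives left out single arrays or pairs and trios of arrays, and changed scaling, filter, floor, samples in the fit, trend, probe set summary and block.

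The members, the 11 gene lists and the alternatives were chosen with earlier results of these data known. The named genes are the members, for each member tested the 5 genes with the highest and the 3 with the lowest correlation, the nearest 5 genes on each side, up to 4 called genes of each list and comparison, and Pou5f1, Nanog, Sox2, Uhrf1, Dnmt1, Dnmt3b, Dnmt3l, Tet1, Dazl, Asz1, Prdm14, Morc1 and Ooep. List genes that passed but changed less than 2-fold, and Usp17la, Pramel6 and Tdrkh, were named outside this rule after their values were seen.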

Additional observations from a re-analysis of the deposited data

Results flagged for a closer look

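In 1 of the 30 groups of 5 arrays made by the 5 Dppa probe sets and 6 strains, 1 array stood apart from the other 4. For the dimmer Dppa2 probe set P19CL6 replicate 5 read 4.25 on the log2 scale, and the other P19CL6 arrays read 1.22 to 2.00; the gap was 0.743 of the group's range, above Dixon's limit of 0.71. All 5 values lie under the floor of 4.61, and the brighter Dppa2 probe set read 3.52 in that array, inside the P19CL6 range. Chance flags about 1 in 20 groups.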

How the results depend on the processing

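Of 388 recomputed differences of the brightest Dppa probe sets, 381 moved by less than 1 SD, 6 moved further and 1 changed sign, at a value near 0. Changes of filter, trend, block, probe set summary or strains in the fit cannot alter a difference of means. Leaving out 1 of 5 arrays can shift it only a little. Most of the 381 were therefore fixed in advance and say little about stability. For P19CL6 against P19, Dppa4 (as reported -1.67) was -2.69 without P19 replicates 4 and 5 and -0.13 without P19 replicates 1, 2 and 3, where the brighter Dppa2 probe set was -0.0137 in place of -1.50. With signals raised to the floor, Dppa3 was -0.19 there and 0.20 for CL6G45, the brighter Dppa2 probe set was 0.0248 for CL6G26 and 0.00055128 for CL6G36 (as reported -0.58), which is no difference, since all arrays of both strains lie under the floor. Without P19 replicates 1, 2 and 3 the signs also turned for the dimmer Dppa2 probe set (0.29), Klf5 (0.0343), Gdf3 (0.00819), Alpl (0.0131), Col4a1 (-0.0641) and Gata3 (-0.16). The cause was not tested.

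The count of genes called for P19CL6 against P19, 86, was 47 with the deposited scaling, 389 without P19 replicates 4 and 5, 3 without P19CL6 replicates 1 and 2, and 0 with the 2 strains alone or without P19 replicates 1, 2 and 3 (limma; 2137 and 441 genes at an unadjusted p under 0.05). Leaving out 1 array gave 0 to 198: 0 without P19 replicate 1, 2 or 3, and 198 and 192 without P19 replicates 4 and 5. CL6G26 had 34 calls and 22 with the deposited scaling; CL6G45 had 182 and 112 with signals raised to the floor. By adjusted p alone the deposited scaling left 48, 34, 329, 385 and 171 genes, in place of 588, 164, 1786, 1747 and 419, for P19CL6, CL6G26, CL6G36, CL6G45 and CL6G52.

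Of 1292 alternatives for list genes that passed, 1088 passed, 199 did not and 5 reversed. With replicate number as a block, 85, 34, 194, 181 and 64 genes were called in place of 86, 34, 192, 182 and 66. Correlations of same-numbered arrays ran from -0.10 to 0.08, so the numbers were not taken to pair the arrays. Most Dppa signals lie near background, which limits every order below the floor.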
